A study of Mus musculus with 2 samples.

Results

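Transcripts of 10 subunits of the Polycomb repressive complexes were compared between control and KDM5B-depleted ES cells under differentiation conditions. The 10 genes were taken by symbol from the 21935 gene symbols of the RNA-Seq tables. They were *Ezh1*, *Ezh2*, *Suz12*, *Eed*, *Jarid2* and *Mtf2* of Polycomb repressive complex 2 (PRC2) and *Rnf2*, *Ring1*, *Bmi1* and *Cbx7* of Polycomb repressive complex 1 (PRC1). All 10 were found, and all had an RPKM (reads per kilobase of transcript, scaled to the size of the library) above 1 in both libraries.

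The cells were R1, a line of mouse embryonic stem (ES) cells. LIF, a cytokine that maintains self-renewal, had been withdrawn for 72 h (day 3). For cultures without LIF the paper gives gelatin coated dishes or low attachment dishes. Both groups had received a lentiviral small hairpin RNA, directed against luciferase in shLuc cells and against *Kdm5b* in shKdm5b cells. There was 1 library of polyadenylated RNA in each group, so the differences below have no replicate check, and library and condition cannot be told apart. The shLuc library had 78172700 reads and the shKdm5b library 72702699 reads. *Kdm5b*, the targeted transcript, had an RPKM of 104 (51378 reads) in shLuc cells and 3.01 (1377 reads) in shKdm5b cells. The 10 listed ES cell markers had RPKM between 65.4 and 1096 in shLuc cells and between 41.2 and 1651 in shKdm5b cells, so at 72 h both cultures still expressed them. Within that list *Pou5f1* (619 and 182 RPKM) and *Esrrb* (80.5 and 41.2 RPKM) were lower in shKdm5b cells by more than 1.5-fold and *Dppa5a* (1096 and 1651 RPKM) was higher. With the GC curve described below taken out the log2 ratios were -1.03 for *Pou5f1*, -0.31 for *Esrrb* and 0.75 for *Dppa5a*, and with transcript length taken out as well they were -1.29, -0.15 and -0.028. *Utf1* had a log2 ratio of -0.29 as deposited, 0.68 with the GC curve and 0.31 with both curves taken out. The part of these differences in the subunit values was not tested. Of 10 fibroblast markers, examined because ES cells are maintained on feeder fibroblasts, 8 had an RPKM of at most 1 in both libraries, and the collagens *Col1a1*, *Col1a2* and *Col3a1* had 174, 57 and 15 reads in shLuc cells and 135, 75 and 17 reads in shKdm5b cells. *Postn* and *Fap* each had 3 reads in shLuc cells and 0 in shKdm5b cells. The summed RPKM of the fibroblast markers was 16.9 in shLuc cells and 23.6 in shKdm5b cells, and most of it came from *Fbln1* (11.9 and 18.0) and *Thy1* (4.08 and 4.59). *Fbln1* was higher in shKdm5b cells by more than 1.5-fold (log2 ratio 0.59), and *Thy1* was not (0.16). With the GC curve taken out both passed 1.5-fold, at 1.15 and 0.78.

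Polycomb proteins keep developmental genes silent in ES cells through marks on histones. PRC2 methylates lysine residues of histone H3 to give H3K27me3 and holds a catalytic subunit, EZH2 or EZH1, with EED and SUZ12 as obligate partners, while accessory proteins such as JARID2 and MTF2 bring it to chromatin. PRC1 places ubiquitin on histone H2A through RNF2 (RING1B) or RING1, each paired with a PCGF protein such as BMI1, and some forms carry a CBX protein that binds H3K27me3. Many silenced promoters also carry H3K4me3, the mark that KDM5B removes, and are called bivalent.

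The subunits did not differ in a common direction. A gene was called when its fold change was above 1.5 and its RPKM above 1 in at least 1 library. By this rule 5 of the 10 subunits were called, 2 higher (*Eed* and *Rnf2*) and 3 lower (*Ring1*, *Jarid2* and *Cbx7*) in shKdm5b cells. Over all 11804 genes with an RPKM above 1 in at least 1 library, 48.3% were called in either direction, 16.3% higher and 32.0% lower, so the share among the subunits is near the background. The log2 ratios of shKdm5b to shLuc, taken on the log2(RPKM + 0.1) scale throughout, ran from -1.75 to 0.70 among the subunits. Their median was -0.0083, against -0.21 over all 11804 genes, with 5 subunits above 0 and 5 below. Centring the libraries on a median log2 ratio of 0, which removes a shift of -0.17, takes *Ezh2*, *Bmi1* and *Mtf2* past 1.5-fold and *Cbx7* back within it, giving 5 higher and 2 lower subunits. After the same centring 5632 of 11870 genes (47.4%) were called, 2606 higher and 3026 lower. The summed RPKM of the 10 subunits was 465 in shLuc cells and 459 in shKdm5b cells. In bulk RNA a different number of expressing cells and a different level per cell cannot be told apart.

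**Figure D1:**
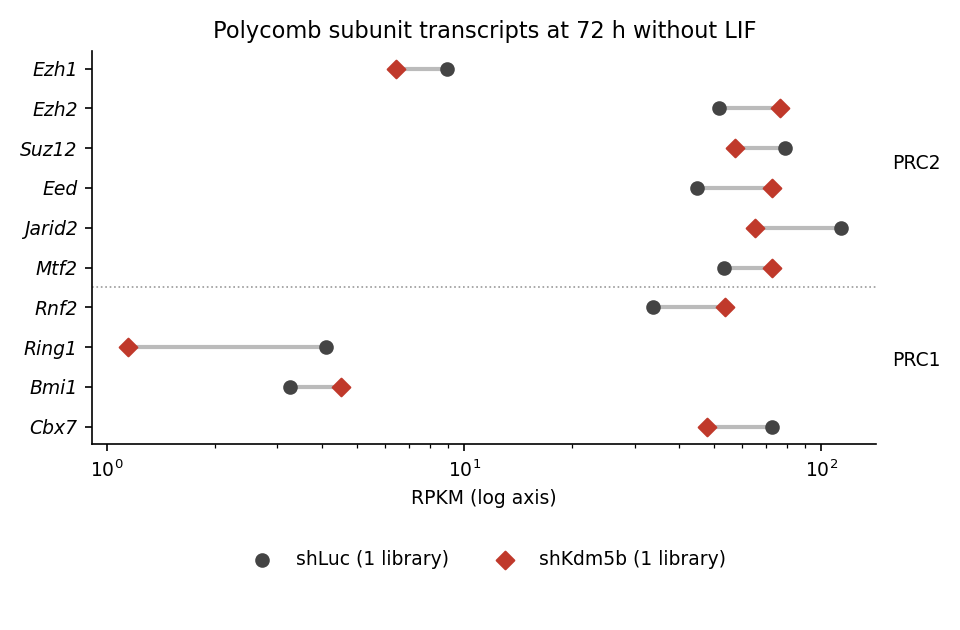
RPKM (log axis) of the 10 Polycomb subunits in the shLuc library (dark circles) and the shKdm5b library (red diamonds), PRC2 above the dotted line and PRC1 below. In shLuc cells *Jarid2* was the highest at 113 and *Bmi1* the lowest at 3.25, and in shKdm5b cells *Ezh2* was the highest at 76.7 and *Ring1* the lowest at 1.14.

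In shLuc cells the order of RPKM was *Jarid2*, *Suz12*, *Cbx7*, *Mtf2*, *Ezh2*, *Eed*, *Rnf2*, *Ezh1*, *Ring1* and *Bmi1*. In shKdm5b cells it was *Ezh2*, *Eed*, *Mtf2*, *Jarid2*, *Suz12*, *Rnf2*, *Cbx7*, *Ezh1*, *Bmi1* and *Ring1*. Without replicates there is no spread to say which neighbours in these orders differ. As the plot of RPKM by library shows, the 7 most abundant transcripts lay between 33.9 and 113 RPKM in shLuc cells and between 47.7 and 76.7 RPKM in shKdm5b cells. *Ezh1*, *Ring1* and *Bmi1* lay between 3.25 and 8.93 RPKM and between 1.14 and 6.44 RPKM.

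The catalytic subunits of PRC2 differed in opposite directions, neither past 1.5-fold. *Ezh2*, the main H3K27 methyltransferase of dividing cells, lies on chromosome 6 from 47530139 to 47595341 (GENCODE M21, GRCm38, as for the other coordinates of genes). Its RPKM was 51.6 (10644 reads) in shLuc cells and 76.7 (14713 reads) in shKdm5b cells. The log2 ratio was 0.57 (95% counting interval 0.54 to 0.61), just inside the 1.5-fold limit. The further RefSeq entry of *Ezh2*, which shares nearly all of its reads, gave the same log2 ratio of 0.57. *Ezh1*, the paralogue with the weaker methyltransferase activity, lies on chromosome 11 from 101191115 to 101226463. Its RPKM was 8.93 (2928 reads) in shLuc cells and 6.44 (1963 reads) in shKdm5b cells, a log2 ratio of -0.47 (-0.56 to -0.39). *Ezh2* therefore made up 85.2% of the summed *Ezh1* and *Ezh2* RPKM in shLuc cells and 92.3% in shKdm5b cells. That sum was 60.5 RPKM in shLuc cells and 83.2 RPKM in shKdm5b cells. With the GC curve described below taken out the shKdm5b sum was 72.8 RPKM, and with transcript length taken out as well it was 75.7 RPKM.

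The obligate partners of EZH2 also differed in direction. *Eed*, whose protein binds H3K27me3 and stimulates the enzyme, lies on chromosome 7 from 89954654 to 89980983. Its RPKM was 45.0 (7242 reads) in shLuc cells and 73.0 (10931 reads) in shKdm5b cells, a log2 ratio of 0.70 (0.66 to 0.74), the highest of the 10. *Suz12*, whose protein holds the complex together, lies on chromosome 11 from 79993106 to 80034123. Its RPKM was 79.0 (26585 reads) in shLuc cells and 57.4 (17942 reads) in shKdm5b cells, a log2 ratio of -0.46 (-0.49 to -0.44), within 1.5-fold. The further RefSeq entry of *Suz12* gave the same log2 ratio of -0.46. Per length, *Eed* was at 0.57 times the level of *Suz12* in shLuc cells and at 1.27 times in shKdm5b cells. *Ezh2* was at 0.65 times the level of *Suz12* in shLuc cells and at 1.34 times in shKdm5b cells. *Eed* and *Ezh2* kept closer to each other, with *Eed* at 0.87 times *Ezh2* in shLuc cells and 0.95 times in shKdm5b cells. With the GC curve described below taken out, *Eed* in shKdm5b cells was at 1.15 times *Ezh2*, so their order was reversed. At that setting *Eed* was at 1.69 times and *Ezh2* at 1.47 times the level of *Suz12*.

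The promoters of these PRC2 transcripts are shown because *Ezh2* and *Eed* differed in direction from *Suz12*. Each runs from 250 bases before to 50 bases after the RefSeq start, in the direction of the gene (GRCm38.p6, RefSeq). They lie at chr6:47594981-47595280 (minus strand), chr7:89980927-89981226 (minus strand) and chr11:79992856-79993155 (plus strand). Capitals mark matches, on either strand, to 7 motifs: E2F (TTTCCCGC or TTTGGCGC), NRF1 (GCATGCGC), ETS (CCGGAAGT), YY1 (AAGATGGC), CRE (TGACGTCA), SP/KLF (GGGCGG) and the CCAAT box.
Ezh2: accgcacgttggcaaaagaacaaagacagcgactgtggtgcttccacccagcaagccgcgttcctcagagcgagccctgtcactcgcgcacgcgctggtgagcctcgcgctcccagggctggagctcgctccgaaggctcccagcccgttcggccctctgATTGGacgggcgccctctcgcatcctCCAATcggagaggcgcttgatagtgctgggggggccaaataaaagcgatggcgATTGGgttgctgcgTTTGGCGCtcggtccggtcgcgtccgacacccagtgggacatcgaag
Eed: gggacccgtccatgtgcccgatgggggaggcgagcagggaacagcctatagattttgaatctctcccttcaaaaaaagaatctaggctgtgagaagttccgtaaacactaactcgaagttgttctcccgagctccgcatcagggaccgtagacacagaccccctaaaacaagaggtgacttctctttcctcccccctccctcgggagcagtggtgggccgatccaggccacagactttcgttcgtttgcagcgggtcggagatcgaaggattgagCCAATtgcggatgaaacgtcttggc
Suz12: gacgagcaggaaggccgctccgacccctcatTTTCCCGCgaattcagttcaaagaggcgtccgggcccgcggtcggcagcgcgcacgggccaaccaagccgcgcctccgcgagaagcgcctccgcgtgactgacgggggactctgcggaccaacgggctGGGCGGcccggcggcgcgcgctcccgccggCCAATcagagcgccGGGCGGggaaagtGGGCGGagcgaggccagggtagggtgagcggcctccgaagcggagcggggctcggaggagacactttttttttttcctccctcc

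The E2F letters, which 1.56% of 32851 promoters of this length hold, were in the windows of *Ezh2* and *Suz12* and in none of the other members' windows. *Ezh2* holds TTTGGCGC beginning 3 bases after the start, and *Suz12* holds TTTCCCGC beginning at position -219 relative to it. The CCAAT box, held by 37.4% of promoters, was matched 3 times in *Ezh2*, and 1 time each in *Eed* and *Suz12*. SP/KLF letters, held by 35.7% of promoters, were matched 3 times in *Suz12*. These matches are descriptions of letters, not of bound sites.

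The accessory subunits of PRC2 were likewise split. *Jarid2*, a catalytically inactive relative of the KDM5 demethylases that recruits PRC2, lies on chromosome 13 from 44729474 to 44921643. It was the most abundant subunit in shLuc cells, with an RPKM of 113 (43585 reads) and a level at or above 96.8% of the 11804 genes. In shKdm5b cells its RPKM was 65.3 (23369 reads), a log2 ratio of -0.79 (-0.82 to -0.77). *Mtf2*, a Polycomb-like protein that binds CpG-rich DNA and belongs to a form of PRC2 without JARID2, lies on chromosome 5 from 108065674 to 108109004. Its RPKM was 53.4 (16930 reads) in shLuc cells and 72.7 (21449 reads) in shKdm5b cells, a log2 ratio of 0.45 (0.42 to 0.48), within 1.5-fold. *Jarid2* was at 2.12 times the level of *Mtf2* in shLuc cells and at 0.90 times in shKdm5b cells. With the GC curve described below taken out it was at 1.63 times *Mtf2* in shKdm5b cells, and the order was that of shLuc cells.

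The ubiquitin ligases of PRC1 differed in opposite directions, both past 1.5-fold. *Rnf2*, the main H2A ubiquitin ligase of ES cells, lies on chromosome 1 from 151458004 to 151500955. Its RPKM was 33.9 (8021 reads) in shLuc cells and 53.7 (11820 reads) in shKdm5b cells, a log2 ratio of 0.66 (0.62 to 0.71). *Ring1*, its paralogue, lies on chromosome 17 from 34020792 to 34024680. Its RPKM was 4.10 (651 reads) in shLuc cells and 1.14 (169 reads) in shKdm5b cells, which is 27.9% of the shLuc level. The log2 ratio of *Ring1* was -1.75 (-2.09 to -1.59), the lowest of the 10 and at or above only 3.22% of the 11804 genes. *Ring1* was called under 10 of the 11 alternative settings and *Eed* under 9, more than any other member. Neither gene had a further RefSeq entry, and each had an RPKM above 1 in both libraries. Summing entries or changing the RPKM threshold therefore could not alter their calls. *Rnf2* took 89.2% of the summed *Ring1* and *Rnf2* RPKM in shLuc cells and 97.9% in shKdm5b cells, while the sum was 38.0 and 54.8 RPKM. With the GC curve described below taken out the shKdm5b sum was 41.2 RPKM, and with transcript length taken out as well it was 43.8 RPKM.

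The promoters of this paralogue pair, at chr1:151500942-151501241 (minus strand) and chr17:34024631-34024930 (minus strand) of GRCm38.p6, are shown beside each other because the transcripts differed in opposite directions, with the same meaning of capitals.
Rnf2: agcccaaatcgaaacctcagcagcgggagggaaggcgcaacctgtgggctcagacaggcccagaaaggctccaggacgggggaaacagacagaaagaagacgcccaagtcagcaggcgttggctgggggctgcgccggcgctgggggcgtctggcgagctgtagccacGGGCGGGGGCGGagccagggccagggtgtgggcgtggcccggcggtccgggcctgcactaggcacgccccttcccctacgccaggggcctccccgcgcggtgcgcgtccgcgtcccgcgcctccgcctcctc
Ring1: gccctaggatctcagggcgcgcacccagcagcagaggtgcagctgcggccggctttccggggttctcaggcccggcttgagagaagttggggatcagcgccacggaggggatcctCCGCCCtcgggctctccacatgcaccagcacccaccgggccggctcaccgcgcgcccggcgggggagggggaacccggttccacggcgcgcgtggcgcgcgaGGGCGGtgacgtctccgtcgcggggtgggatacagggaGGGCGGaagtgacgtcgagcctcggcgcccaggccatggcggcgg

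Both windows are rich in G and C, 72.7% in *Rnf2* with 30 CpG and 74.0% in *Ring1* with 37 CpG, against medians of 52.7% and 7 CpG over all promoters. Only SP/KLF letters were matched, 2 times in *Rnf2* and 3 times in *Ring1*. The windows were thus close in base composition, whereas the transcripts were not: the GC content was 40.4% for the *Rnf2* transcript and 60.7% for the *Ring1* transcript.

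The remaining PRC1 members differed in abundance and in direction. *Bmi1*, a PCGF protein that supports the ligase and is known for repressing the *Cdkn2a* locus, lies on chromosome 2 from 18677018 to 18686629. It was the lowest subunit in shLuc cells, with an RPKM of 3.25 (914 reads), and had 4.53 (1184 reads) in shKdm5b cells. Its log2 ratio was 0.47 (0.35 to 0.60), within 1.5-fold. *Cbx7*, the chromodomain protein of canonical PRC1 in self-renewing ES cells, lies on chromosome 15 from 79915807 to 79971119. Its RPKM was 72.7 (16434 reads) in shLuc cells and 47.7 (10041 reads) in shKdm5b cells. The log2 ratio of *Cbx7* was -0.61 (-0.64 to -0.57), just past the 1.5-fold limit, and it was 0.099 once the GC curve described below was taken out.

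**Figure D2:**
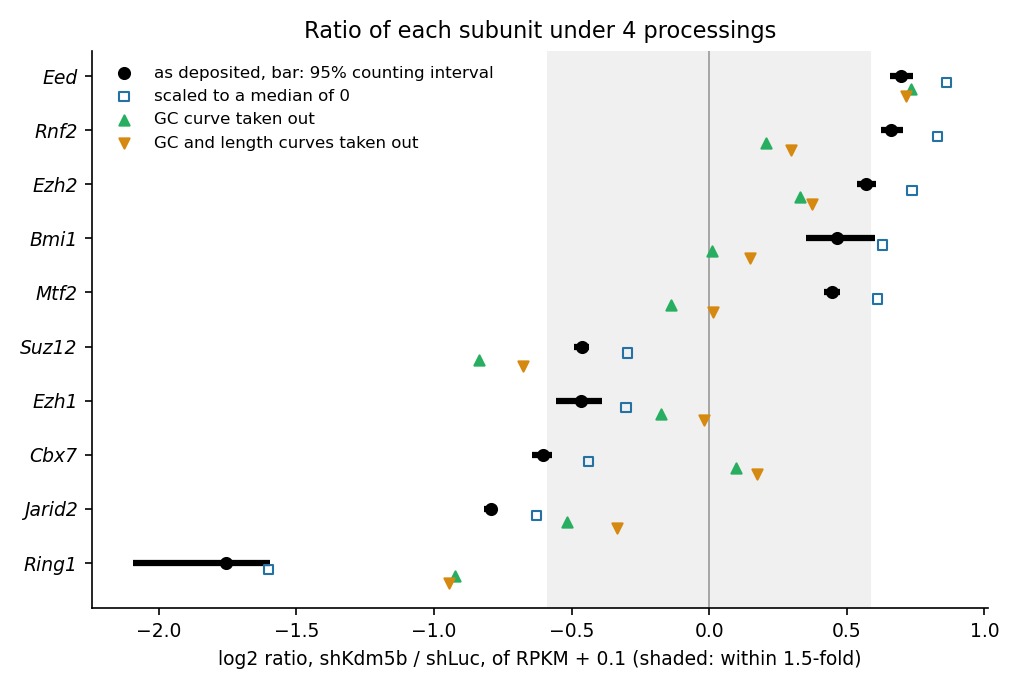
Log2 ratio of shKdm5b to shLuc for each subunit (black circle, with the 95% counting interval as a bar), after scaling to a median of 0 (blue squares), after the GC curve was taken out (green triangles) and after the GC and length curves were taken out (orange triangles), with 1.5-fold shaded. *Eed* and *Ring1* lay outside the shaded range in all 4, and *Cbx7* and *Mtf2* changed sign when the GC curve was taken out.

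Within each set of paralogues compared here, the paralogue that led in shLuc cells also led in shKdm5b cells. *Cbx7* was 73.2% of the summed RPKM of *Cbx2*, *Cbx6*, *Cbx7* and *Cbx8* in shLuc cells and 81.3% in shKdm5b cells. As deposited, the summed RPKM of these 4 *Cbx* genes was 99.3 in shLuc cells and 58.7 in shKdm5b cells. The size of that difference rests on the deposited values. With the GC curve described below taken out, *Cbx7*, the largest part of the sum, had a log2 ratio of 0.099. *Cbx2* (9.57 and 4.69 RPKM) and *Cbx6* (16.9 and 6.09 RPKM) were both called lower, with log2 ratios of -1.01 and -1.46, or -0.29 and -0.78 with the GC curve taken out. *Cbx8* (17 and 22 reads) was below 1 RPKM in both libraries. *Bmi1* was compared with its paralogue *Pcgf2* (MEL18) alone, and had 11.4% of their summed RPKM in shLuc cells and 14.3% in shKdm5b cells. This pair is part of the PCGF family. *Pcgf6*, at 27.1 RPKM in shLuc cells and 35.2 in shKdm5b cells, was above *Pcgf2* (25.3 and 27.1). With the GC curve taken out the *Bmi1* share in shKdm5b cells was 7.61%, below that in shLuc cells.

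**Figure D3:**
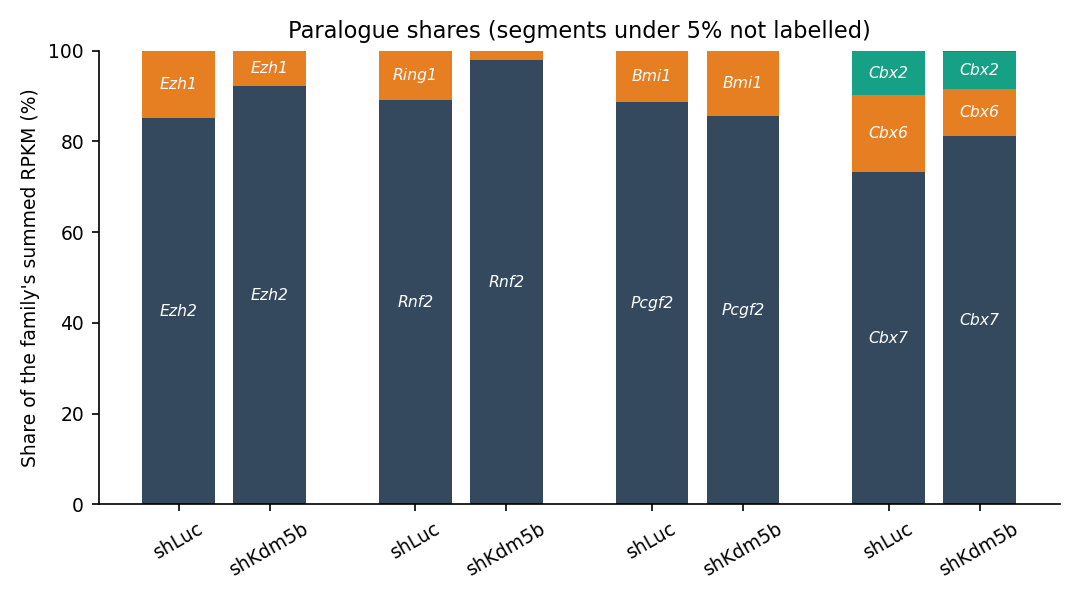
Share (%) of each paralogue in the summed RPKM of its compared set in the shLuc and shKdm5b libraries, as stacked bars from 0 to 100%. The set of *Bmi1* holds *Pcgf2* only, not the other PCGF genes. *Ezh2*, *Rnf2* and *Cbx7* took larger shares in shKdm5b cells (92.3%, 97.9% and 81.3%) than in shLuc cells (85.2%, 89.2% and 73.2%), and *Pcgf2* exceeded *Bmi1* in both.

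The GC content of the transcripts moved with these ratios. Across the 10 subunits the Spearman correlation of the log2 ratio with GC content was -0.64 (Pearson -0.80), and across 11535 genes with an RPKM above 1 it was -0.53. The points come from the same pair of libraries, and these correlations are descriptions. A lowess curve of the log2 ratio over GC content, fitted on all expressed genes, stood at 0.58 for the GC content of *Mtf2* (38.2%), 0.46 for that of *Rnf2* (40.4%), -0.70 for that of *Cbx7* (57.0%) and -0.83 for that of *Ring1* (60.7%). With the curve taken out, *Ring1* had a log2 ratio of -0.92 and *Eed*, whose GC content of 47.8% lies where the curve is near 0, one of 0.73. *Suz12*, with a GC content of 41.9%, was farther from 0, at -0.84, and passed 1.5-fold. *Jarid2* (-0.52), *Ezh2* (0.33), *Rnf2* (0.21), *Ezh1* (-0.18), *Mtf2* (-0.14), *Cbx7* (0.099) and *Bmi1* (0.011) lay within 1.5-fold. *Eed* and *Suz12* thus lay farther apart after this step, the values being 0.73 and -0.84 in place of 0.70 and -0.46. With transcript length taken out as well, the called subunits were again *Eed* (0.72), *Ring1* (-0.94) and *Suz12* (-0.68). Over all genes 37.0% were called with the GC curve taken out and 32.2% with both curves taken out.

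**Figure D4:**
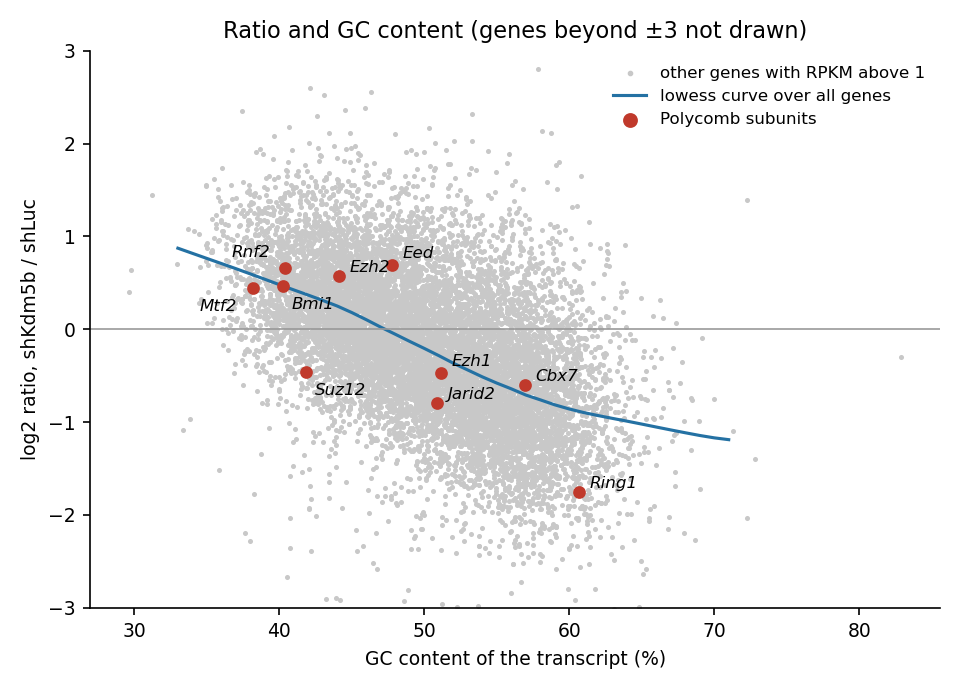
Log2 ratio of shKdm5b to shLuc against the GC content (%) of the transcript for genes with an RPKM above 1 (grey), the lowess curve over them (blue) and the 10 subunits (red, named). *Bmi1*, *Rnf2*, *Mtf2*, *Ezh1* and *Cbx7* lie near the curve, *Eed* above it, and *Suz12* and *Ring1* below it.

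Exons of 6 subunits overlap another gene on the opposite strand in GENCODE M21, and the library preparation did not mark strand. The shared bases were 395 for *Mtf2* with *Tmed5*, 158 for *Rnf2* with *Trmt1l* and 100 for *Cbx7* with *Apobec3*. They were 261 for *Eed*, 174 for *Ezh2* and 178 for *Suz12*, each with a noncoding transcript. These stretches are short beside transcripts of 2060 to 4303 bases, and their part in the ratios was not tested.

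Of 38 other Polycomb genes, listed by function, 35 had an RPKM above 1 and 16 were called, 5 higher and 11 lower, which is 45.7% against 48.3% over all genes. With the GC and length curves taken out the split was 8 higher and 4 lower. Over all 11638 genes at that setting 32.2% were called, 1855 higher and 1894 lower. As deposited, the median log2 ratio of the other Polycomb genes was -0.21, the value over all genes. Among the further PRC2 subunits, *Rbbp7* was higher and its paralogue *Rbbp4*, also a histone-binding protein of the complex, was within 1.5-fold. The RPKM of *Rbbp7* was 75.1 in shLuc cells and 141 in shKdm5b cells (log2 ratio 0.91), and that of *Rbbp4* was 101 and 74.4 (-0.44). *E130012A19Rik*, now named *Epop*, encodes a PRC2 cofactor of ES cells and was the lowest of the list, at 58.1 and 14.3 RPKM (-2.02). The Polycomb-like relatives of *Mtf2* were scarce and lower, with *Phf1* at 1.60 and 0.66 RPKM (-1.17) and *Phf19* at 1.38 and 0.41 RPKM (-1.55). With the GC curve taken out these ratios were -0.39 for *Phf1*, -1.13 for *Phf19*, -0.94 for *E130012A19Rik*, 0.70 for *Rbbp7* and -0.70 for *Rbbp4*, which then passed 1.5-fold. *Aebp2*, a partner of JARID2 in PRC2, was at 18.5 and 16.3 RPKM (-0.18), within 1.5-fold.

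The PCGF family, which defines the forms of PRC1, showed 1 call among its further members. *Pcgf5* was at 6.60 RPKM (779 reads) in shLuc cells and 24.4 RPKM (2681 reads) in shKdm5b cells, a log2 ratio of 1.87 and the highest of the list (1.55 with the GC curve taken out). *Pcgf1* (-0.21), *Pcgf2* (0.097), *Pcgf3* (-0.014) and *Pcgf6* (0.38) were within 1.5-fold, though *Pcgf2* was at 0.65 with the GC curve taken out. Of the polyhomeotic genes, *Phc1* was called lower, at 228 and 146 RPKM (-0.64, and -0.065 with the GC curve taken out), and *Phc2* (0.088, and 0.95 with the curve taken out) and *Phc3* (0.35) were not called. RYBP and YAF2 are alternative partners of RNF2 in PRC1 without CBX. *Yaf2* was called higher, at 5.70 and 15.8 RPKM (1.45), while *Rybp*, the more abundant at 46.1 and 47.1 RPKM, had a log2 ratio of 0.030. *L3mbtl2*, of the PCGF6 form of PRC1, was called lower at 42.9 and 11.3 RPKM (-1.92, and -1.33 with the GC curve taken out), as was *Dcaf7* at 17.9 and 11.5 RPKM (-0.64, and -0.38 with the GC curve taken out). *Kdm2b*, which brings PRC1 to CpG islands, was at 32.3 and 23.6 RPKM (-0.45).

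**Figure D5:**
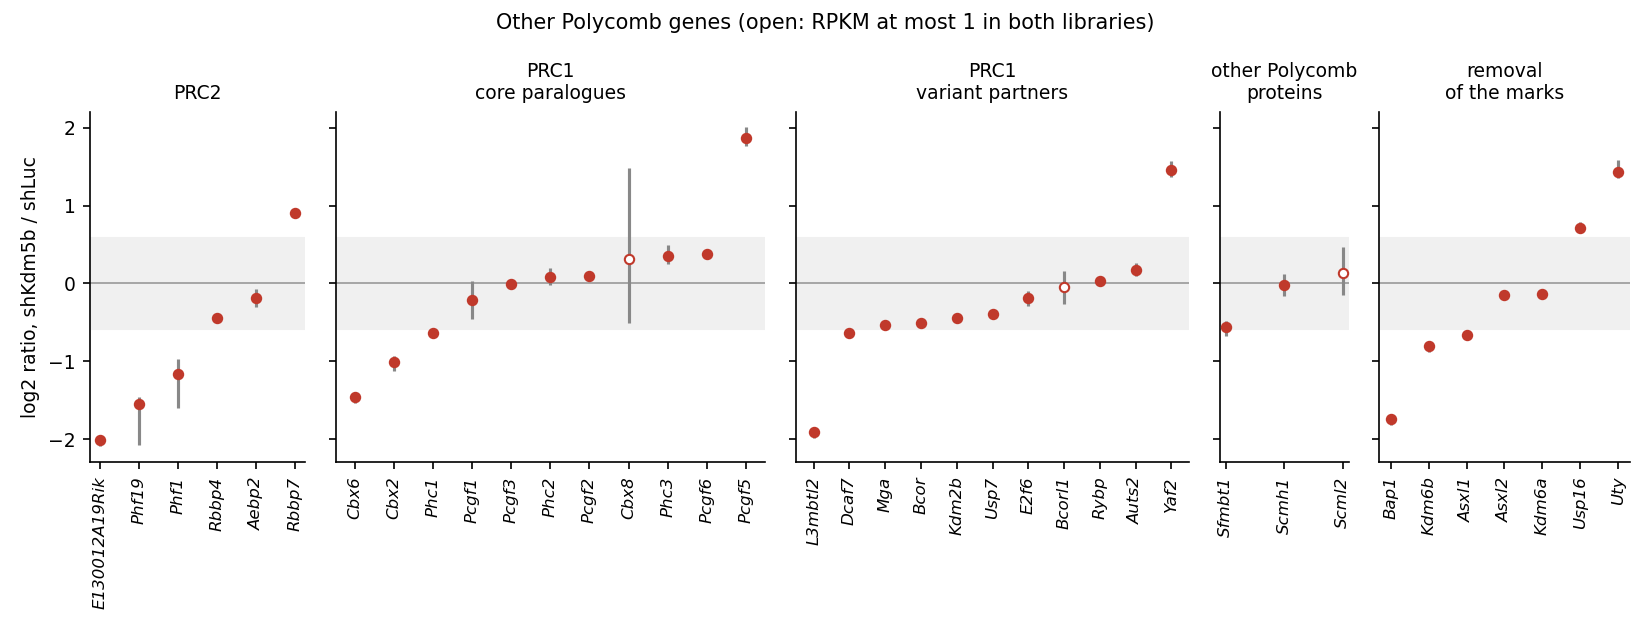
Log2 ratio of shKdm5b to shLuc for 38 other Polycomb genes by function, with 95% counting intervals as bars, 1.5-fold shaded and open circles for genes with an RPKM of at most 1 in both libraries. *Pcgf5* (1.87), *Yaf2* (1.45) and *Uty* (1.43) were the highest, and *E130012A19Rik* (-2.02), *L3mbtl2* (-1.92) and *Bap1* (-1.74) the lowest.

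Developmental genes that Polycomb proteins are known to silence in ES cells were mostly barely expressed in both libraries. Of 35 listed genes, 9 had an RPKM above 1 in at least 1 library, and the median RPKM over the 35 was 0.245 in shLuc cells and 0.246 in shKdm5b cells. Of the 9, 3 were called higher and 3 lower, a count to be read beside the 48.3% called over all genes. The endoderm factors *Gata4* (683 and 133 reads, log2 ratio -2.07, and -1.43 with the GC curve taken out) and *Gata6* (251 and 60 reads, -1.62, and -1.11) were lower, as was *Cdkn2a* (579 and 261 reads, -1.03, and -0.18 with the GC curve taken out), the cell cycle inhibitor locus. *Eomes* (700 and 1076 reads, 0.70), *Irx3* (95 and 152 reads, 0.69) and *Cdkn2b* (150 and 218 reads, 0.61) were higher. With the GC curve taken out their log2 ratios were 1.43, 1.57 and 1.22. Without the RPKM threshold 18 of the 35 were called, 10 higher and 8 lower, where 42.1% of 18155 genes were called, and 10 of the 35 had fewer than 20 reads in the libraries together.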

How the data were processed

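Per the labels, polyadenylated RNA of 1 shLuc and 1 shKdm5b culture was sequenced. The authors deposited, for 27405 RefSeq entries, read counts and RPKM values normalized to transcript length and library total, and the totals were recovered from these columns. The submitters' processing notes name CASAVA 1.0, Bowtie 0.12.7 and mm8. The counting program is not given in the sources used here. A gene of the wider Polycomb list is not reported here. The deposited read positions were not used, since no annotation of their build was at hand.

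Where a symbol had several entries, the most highly expressed one was used. Called means a fold change above 1.5 on log2(RPKM + 0.1) with an RPKM above 1 in either library, the study's fold and RPKM thresholds. The study also required an edgeR FDR below 0.001, which the calls here leave out, so they are looser than the study's. With 1 library each, no test between conditions was possible. Intervals (95%, exact Clopper-Pearson on reads, without the pseudocount) cover counting error only; they had widths of 0.046 to 0.50 for the members, whose reads ran from 169 to 43585. GC content came from GENCODE M21 transcripts (97.7% of expressed genes), and lowess curves (fraction 0.3) were divided out of the shKdm5b RPKM. Promoters came from RefSeq GRCm38.p6, where all 10 members matched. edgeR 4.0.16 (R 4.3.3) was run as an alternative with TMM scaling and an assumed dispersion of 0.04, which compares the libraries, not the conditions. Steps were tested on simulated data that held counting error only, without a spread between libraries. Python 3.11.15, pandas 2.3.3, NumPy 2.4.6, SciPy 1.17.1 and statsmodels 0.14.6 were used. Members, lists and alternatives were chosen with earlier results of these data known. All members were named, as were set paralogues and the called genes of the lists; marker genes were named after their values were seen.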

Additional observations from a re-analysis of the deposited data

How the results depend on the processing

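No paired analysis was possible because there was only 1 library of each kind, and none could be left out. The number of called subunits, 5, was 3 with the GC curve taken out, 3 with the GC and length curves taken out, 1 (*Ring1*) with a fold change above 2 and 0 when an edgeR exact test at an assumed dispersion of 0.04 and an FDR below 0.001 was added, where 284 of 11804 genes were called. The other Polycomb genes gave 16 calls, 10 with a fold change above 2 and 2 (*Pcgf5* and *E130012A19Rik*) with the exact test, with a higher to lower split of 5 to 8 after scaling and 8 to 4 with both curves taken out. The target genes gave 6 calls, 3 with a pseudocount of 1, 18 without the RPKM threshold, 3 with an RPKM above 1 in both libraries, 3 with a fold change above 2 and 1 with the exact test. Over all genes 48.3% were called. That share was 37.0% with the GC curve taken out, 32.2% with both curves taken out and 22.8% with a fold change above 2. It was 40.3% with a pseudocount of 1, 42.1% without the RPKM threshold and 45.3% with an RPKM above 1 in both libraries. The split over all genes was 2606 higher to 3026 lower after scaling to the median and 1855 to 1894 with both curves taken out. The median log2 ratio of the subunits, -0.0083, was 0.16 after scaling to the median, 0.18 after scaling to the 75th percentile and 0.081 with both curves taken out. With the GC curve taken out *Mtf2* was at -0.14 and *Cbx7* at 0.099, and with both curves *Cbx7* was at 0.17. The difference of 7.01 percentage points in the *Ezh2* share was 3.93 with summed entries, which count the reads of *Ezh2* a second time, 3.91 with the GC curve and 3.13 with both curves taken out. That in the *Rnf2* share, 8.70, was 5.66 with the GC curve taken out. That in the *Bmi1* share, 2.95, was 1.27 with summed entries, -3.78 with the GC curve and -3.15 with both curves taken out. Of 72 values of single subunits under the alternatives, 34 stayed in their counting interval, 35 moved out of it with the same sign and 3 changed sign. The further RefSeq entries of *Ezh2* and *Suz12*, an alternative chosen after seeing the data, stayed in it. Where not given, the cause of these changes was not tested.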

Other observations

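Of 7 genes listed under removal of the Polycomb marks, 5 were called, 2 higher and 3 lower, where 48.3% of all genes were called. With the GC curve taken out 2 of the 7 were called, 1 higher and 1 lower, where 37.0% of all genes were called. *Bap1*, the deubiquitinase that takes ubiquitin off histone H2A, had an RPKM of 30.5 in shLuc cells and 9.04 in shKdm5b cells (log2 ratio -1.74, and -1.18 with the GC curve taken out). *Asxl1*, a cofactor of BAP1, was at 29.9 and 18.8 RPKM (-0.67, and -0.33 with the GC curve taken out), and *Asxl2* (9.76 and 8.77 RPKM, -0.15) was not called. *Usp16*, another H2A deubiquitinase, was on the opposite side at 12.4 and 20.5 RPKM (0.72, and 0.49 with the GC curve taken out). Of the H3K27 demethylase genes, *Kdm6a* (18.1 and 16.5 RPKM, -0.13) was not called. *Kdm6b* (10.4 and 5.90 RPKM, -0.80) was called lower but had 0.028 with the GC curve taken out. The Y-linked *Uty*, listed beside them, was called higher at 2.03 and 5.62 RPKM (1.43, and 0.72 with the GC curve taken out). Whether its product removes H3K27 methylation was not examined.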
